A study of Mus musculus with 2 samples.

Results

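The 10 genes described here are the Gadd45 family (Gadd45a, Gadd45b and Gadd45g), the cell cycle inhibitor gene Cdkn1a, and 6 genes of the integrated stress response or of its close surroundings (Atf4, Ddit3, Trib3, Chac1, Ddit4 and Ddit4l). They are 10 of the 31053 genes in the files and were found there by symbol, all 10 of them in both libraries. They were chosen by name with their CPM and log2 ratios of OIR over control in these same libraries known, so every ratio below is a description, carries no test and supports nothing beyond itself.

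Gadd45 proteins are small acidic proteins of the nucleus that are made on DNA damage, growth arrest and other stress. They bind the kinase Map3k4 at the head of the p38 and JNK cascades, as well as PCNA, Cdk1 and the DNA glycosylase Tdg. Cdkn1a encodes p21, which blocks cyclin-dependent kinases and is a classical target of p53. In the integrated stress response, kinases that sense amino acid shortage, misfolded protein, viral RNA or haem shortage phosphorylate eIF2alpha, which slows most translation and favours that of Atf4. Atf4 is a transcription factor that switches on Ddit3 (also known as Chop), Trib3 and Chac1, among many genes of amino acid supply. Ddit4 (also known as Redd1) and Ddit4l restrain the growth kinase complex mTORC1, and Ddit4 is also a target of hypoxia factors and of glucocorticoids. In oxygen-induced retinopathy (OIR), pups kept in high oxygen lose retinal capillaries and the retina becomes hypoxic once they breathe room air again.

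Both libraries came from wild type C57BL/6 mice at postnatal day 17, with the retinas of 6 mice pooled for each. In the OIR model, pups and their nursing mother are kept in 75% oxygen from day 7 to day 12 and then in room air. The labels give that protocol for both libraries alike, name the control library only NOIR and control, and do not state its oxygen exposure, so what the ratios of OIR over control contrast is known only as far as these labels. After papain digestion, cells bound by CD11b beads were kept for droplet sequencing. CD11b, an integrin chain, marks myeloid cells. Each group is thus 1 library of 1 pool, and no difference between them has a replicate check.

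There were 10826 barcodes and 50081145 UMIs in the control library and 7283 barcodes and 49773742 UMIs in the OIR library, where a UMI (unique molecular identifier) stands for 1 captured RNA molecule. After filtering, 8585 control cells (median 1648 UMIs) and 6132 OIR cells (median 2828.5 UMIs) were kept, and 30 of the kept cell barcodes occurred in both libraries. The label calls the cells retinal microglia, but the marker genes went against it for most of them: microglia-like cells were 9.64% of control and 10.2% of OIR cells, and rod-like cells 77.4% and 58.5%. Clusters were named from marker genes, and a name ending in "-like" means no more than that. Comparisons were limited to the 5 classes in which both libraries had at least 200 cells: rod-like (6649 control and 3588 OIR cells), cone-like (327 and 751), bipolar-like (269 and 480), Müller glia-like (261 and 388) and microglia-like cells (828 and 625). Müller glia are the radial support cells of the retina. Levels are given in CPM, the UMIs of a gene relative to all UMIs of its class in its library, and every 95% interval below is for counting alone. Fewer cells of a kind within a class and less RNA per cell cannot be told apart in such sums. Sex-linked RNA was unequal between the pools: Ddx3y, on the Y chromosome, was at 30.1 CPM in control rod-like cells against 14.9 CPM in OIR ones. Its part in the results was not tested.

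The 250 bases before the start of 5 of the genes are shown, as RefSeq gives them in build GRCm38.p6. All 10 genes had such a promoter in that table, with 11 promoters in all, since Cdkn1a has 2. Capitals mark matches, on either strand, to TGATGNAA (the core of the composite element bound by Atf4 and Chop with C/EBP partners), ACGTG (the core of the hypoxia response element), TGACGTCA (the cAMP response element), the NF-kB consensus and the p53 decamer. The sequences are written on the strand of each gene.
Gadd45a, chr6:67037408-67037657, minus strand: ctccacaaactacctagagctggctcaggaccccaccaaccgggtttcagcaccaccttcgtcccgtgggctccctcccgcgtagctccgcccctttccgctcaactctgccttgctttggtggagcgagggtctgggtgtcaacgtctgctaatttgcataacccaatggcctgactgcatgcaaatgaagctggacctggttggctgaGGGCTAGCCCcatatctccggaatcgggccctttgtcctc
Gadd45b, chr10:80929841-80930090, plus strand: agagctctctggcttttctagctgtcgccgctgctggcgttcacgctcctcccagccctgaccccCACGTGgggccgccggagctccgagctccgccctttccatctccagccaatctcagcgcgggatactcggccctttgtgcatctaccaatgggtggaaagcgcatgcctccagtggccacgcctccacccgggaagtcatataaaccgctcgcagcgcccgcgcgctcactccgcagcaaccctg
Gadd45g, chr13:51846425-51846674, plus strand: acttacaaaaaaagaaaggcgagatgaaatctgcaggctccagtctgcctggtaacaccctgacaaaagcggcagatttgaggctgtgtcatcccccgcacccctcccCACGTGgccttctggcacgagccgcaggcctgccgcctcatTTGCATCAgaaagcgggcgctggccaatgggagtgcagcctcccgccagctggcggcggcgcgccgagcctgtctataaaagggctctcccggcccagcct
Cdkn1a, upstream promoter, chr17:29090729-29090978, plus strand: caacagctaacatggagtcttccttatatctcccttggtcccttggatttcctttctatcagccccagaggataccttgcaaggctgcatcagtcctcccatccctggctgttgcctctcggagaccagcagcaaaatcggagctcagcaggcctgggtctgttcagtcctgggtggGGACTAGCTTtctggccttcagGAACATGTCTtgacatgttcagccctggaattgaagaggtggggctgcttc
Chac1, chr2:119350992-119351241, plus strand: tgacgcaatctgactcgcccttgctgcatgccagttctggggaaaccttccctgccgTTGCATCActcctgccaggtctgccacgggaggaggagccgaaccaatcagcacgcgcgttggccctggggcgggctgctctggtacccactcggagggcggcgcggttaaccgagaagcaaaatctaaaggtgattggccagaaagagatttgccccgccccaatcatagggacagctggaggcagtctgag

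TGATGNAA was found in the promoters of Gadd45g and Chac1, on the opposite strand in both, which is 2 of the 11 promoters of these genes against 3.40% of the 32536 promoters of the same length. ACGTG was found in Gadd45b, Gadd45g and Ddit4, against 16.7% of all promoters. In Gadd45b and Gadd45g it matched on both strands at 1 place, so that the 2 matches overlap. The p53 decamer was found in Gadd45a, in the upstream promoter of Cdkn1a and in Ddit4l, against 7.12% of all promoters. TGACGTCA and the NF-kB consensus were not found in these 11 windows, and 1.56% and 3.92% of all promoters hold them. A match is a run of letters in this window and not a shown binding site.

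Gadd45b was counted as higher in OIR in the 4 classes other than microglia-like cells, and Cdkn1a in bipolar-like, Müller glia-like and microglia-like cells. Ddit4l was counted as lower in bipolar-like and Müller glia-like cells, and Atf4, Ddit3 and Ddit4 were under 2-fold apart everywhere. A gene is counted as higher or lower where it had at least 20 CPM in 1 library, was at least 2-fold apart and had an interval of the ratio that excluded 0 on the log2 scale. In rod-like cells 1 of the 10 genes was counted as higher (Gadd45b) and 0 as lower, and over all 6540 genes measured there 1.28% were higher and 0.199% lower. In cone-like cells 1 was higher (Gadd45b) and 0 lower, against 1.96% and 0.166% of 6616 genes. In bipolar-like cells Gadd45b and Cdkn1a were higher and Ddit4l lower, against 1.5% and 0.93% of 7204 genes. In Müller glia-like cells Gadd45a, Gadd45b and Cdkn1a were higher and Ddit4l lower, against 2.99% and 4.55% of 6861 genes. In microglia-like cells Gadd45a, Gadd45g and Cdkn1a were higher and 0 lower, against 5.07% and 5.27% of 6075 genes. Nothing is read from these counts, since the genes were chosen with such ratios known. The number of the 10 that reached 20 CPM was 5 in rod-like and cone-like, 8 in bipolar-like and Müller glia-like and 7 in microglia-like cells.

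**Figure D1:**
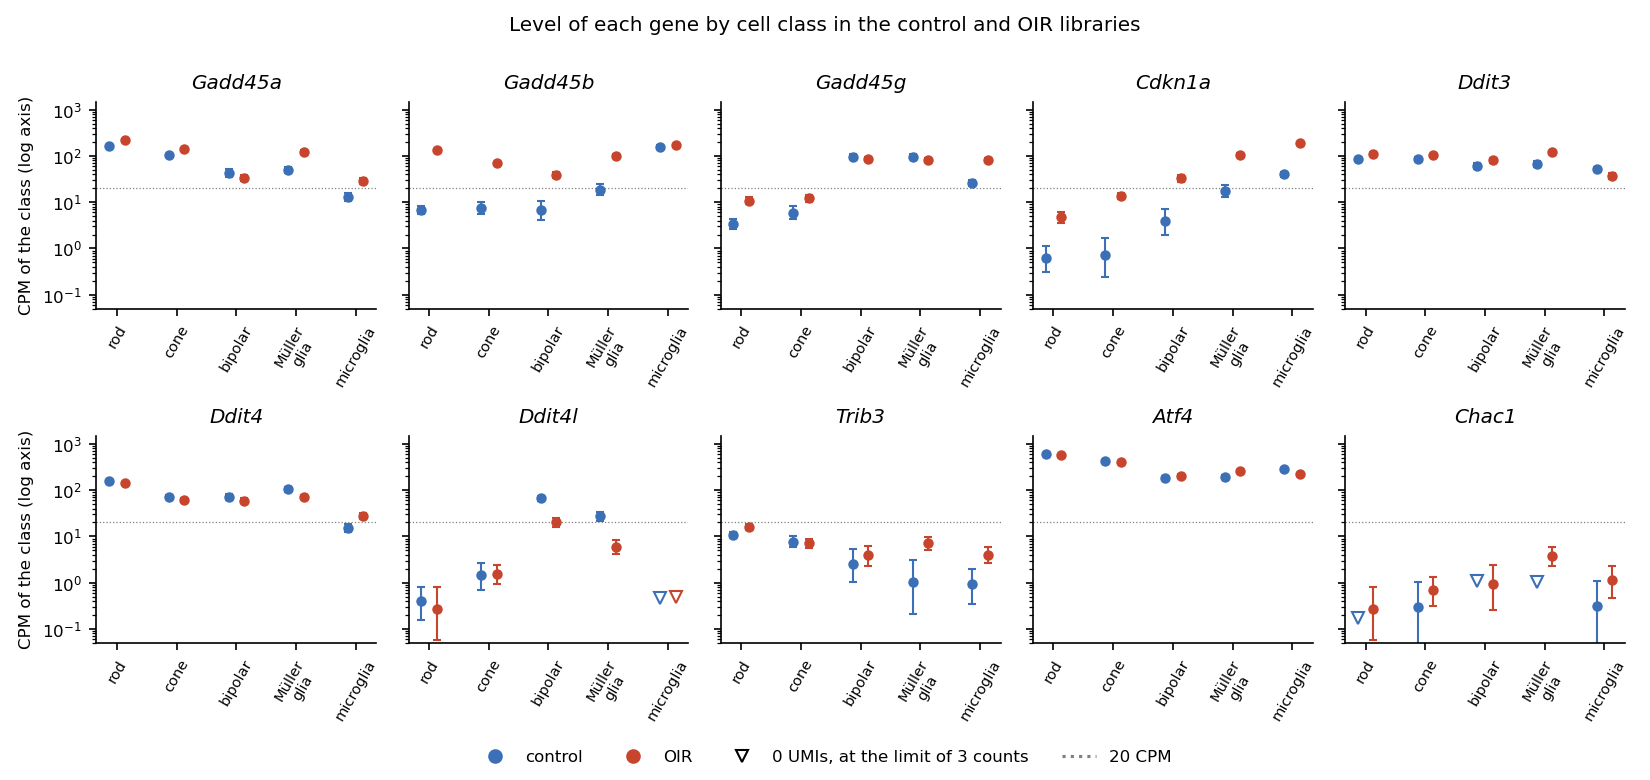
Level of each gene (CPM of the class, log axis) in the 5 cell classes, with control in blue and OIR in red and bars for the 95% counting interval. Open triangles mark 0 UMIs and are drawn at the limit of 3 counts, and the dotted line is 20 CPM. Gadd45b in rod-like cells goes from 6.83 to 134 CPM, while Atf4 stays between 181 and 603 CPM everywhere.

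Gadd45b (ENSMUSG00000015312, chr10:80930073-80932204, plus strand, build mm10) stood at 6.83 CPM in control against 134 CPM in OIR rod-like cells. This is 121 against 1458 UMIs, a 19.6-fold ratio, or 4.29 on the log2 scale with an interval of 4.03 to 4.57. In cone-like cells it stood at 7.59 and 69.5 CPM (log2 ratio 3.20, interval 2.79 to 3.63). In bipolar-like cells it stood at 6.92 and 39.6 CPM (2.51, 1.83 to 3.28), and in Müller glia-like cells at 18.7 and 101 CPM (2.44, 2.03 to 2.87). Microglia-like cells were the exception, with 159 CPM in control against 171 CPM in OIR and an interval that holds 0 (0.11, -0.02 to 0.23). That interval lay above 0 with doublets kept (0.42, 0.30 to 0.54) and below 0 without 1 cluster described further on. In control, microglia-like cells thus held the highest level, Müller glia-like cells the next, and the intervals of cone-like, bipolar-like and rod-like cells overlapped below them. In OIR the order was microglia-like, rod-like, Müller glia-like, cone-like and bipolar-like cells, and no neighbouring intervals overlapped.

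To compare shares of cells at 1 depth, every cell was thinned to 1500 UMIs and shallower cells were left out, which removed 3703 control and 1796 OIR rod-like cells. Of the rod-like cells that remained, 25 of 2946 in control (0.849%, exact Clopper-Pearson interval 0.55 to 1.25) and 298 of 1792 in OIR (16.6%, 14.9 to 18.4) had a Gadd45b UMI. Unthinned, the shares were 1.52% and 21.9%. In microglia-like cells 14.9% (12.5 to 17.7) and 12.4% (9.73 to 15.5) had one. Among thinned cone-like cells 0 of 324 in control and 7.26% of 744 in OIR had a UMI. A count of 0 limits only cells with a UMI at that depth, to 0.926% by a limit of 3 counts and to 1.13% by the exact interval, and unthinned 11.01% and 39.9% of cone-like cells had one.

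The Gadd45b RNA of OIR rod-like cells was unevenly spread over the 10 rod-like clusters. A cluster led by Edn2, the gene of the vasoactive peptide endothelin-2, held 128 control and 1328 OIR cells, and there Gadd45b stood at 79.3 and 274 CPM. In the other 9 clusters it stood at 0 to 7.38 CPM in control and at 26.7 to 61.4 CPM in OIR, so that the OIR level was above the control level in each of the 10. Without the Edn2-led cluster the log2 ratio in rod-like cells was 2.94 (2.61 to 3.28). Gadd45b was itself among the genes used for clustering, so the clusters are no independent evidence. When cells were clustered without the 10 genes and without all genes of the lists below, an Edn2-led cluster of 67 control and 1204 OIR cells again formed, with Gadd45b at 52.9 and 282 CPM, and the other rod-like cells stood at 6.34 and 61.2 CPM.

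**Figure D2:**
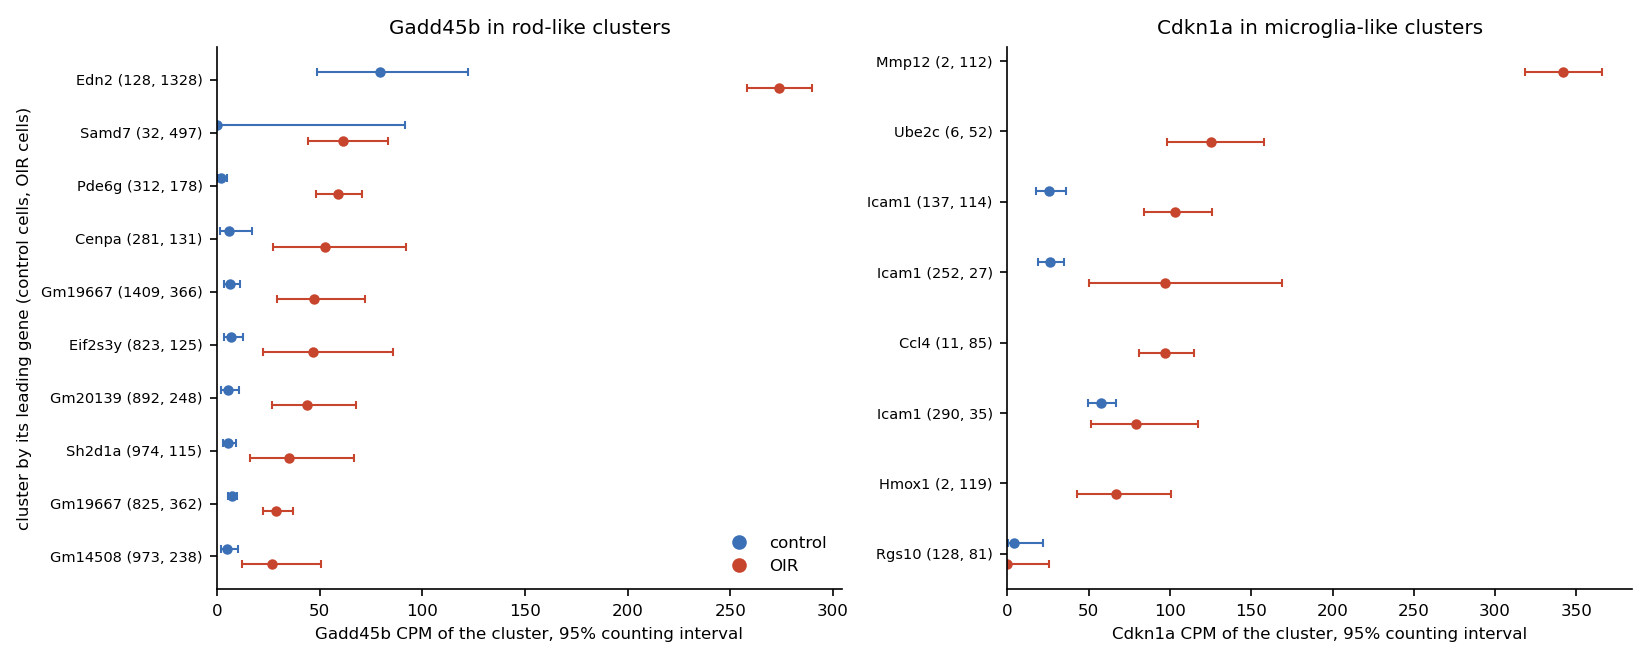
Left, Gadd45b CPM in each rod-like cluster, and right, Cdkn1a CPM in each microglia-like cluster, with control in blue and OIR in red and bars for the 95% counting interval; clusters are labelled by their leading gene and their number of control and OIR cells, and groups of fewer than 20 cells are not drawn. The Edn2-led cluster (274 CPM in OIR) and the Mmp12-led cluster (342 CPM in OIR) lie apart from the others.

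Rod RNA was present in the other classes, so each level was set beside the level that rod RNA would bring, taken as the level in rod-like cells times the share of the rod-like level of Sag, the gene of rod arrestin, that the class holds. Sag is 1 rod transcript and others need not be carried in the same proportion, so these values are not upper limits. OIR cone-like cells held Sag at 75.7% of the rod-like level, which would bring 101 CPM of Gadd45b, more than the 69.5 CPM measured. In cone-like cells the Gadd45b difference cannot be told apart from rod RNA with these values. OIR Müller glia-like cells held 42.9% of the rod-like Sag level against 25.7% in control, which would bring 57.5 CPM of Gadd45b in OIR, of the 101 CPM measured, and 1.76 CPM in control, of 18.7 CPM. Of 14 Müller glia markers, 12 had a lower and 2 (Crym and Vim) a higher level in that class in OIR, with a sum of 34032 CPM in control against 18685 CPM in OIR. The largest share of the sum was Apoe (13703 and 6521 CPM), which microglia-like cells also held (23230 and 23893 CPM), while Rlbp1, at 2637 and 982 CPM in the Müller glia-like class, was under 10 CPM in microglia-like cells. The part of these differences in the levels of the class was not tested. OIR bipolar-like cells held 11% of the rod-like Sag level, which would bring 14.7 CPM of the 39.6 CPM measured. In microglia-like cells rod RNA would bring 0.238 CPM in control against 6.30 CPM in OIR, of 159 and 171 CPM.

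**Figure D3:**
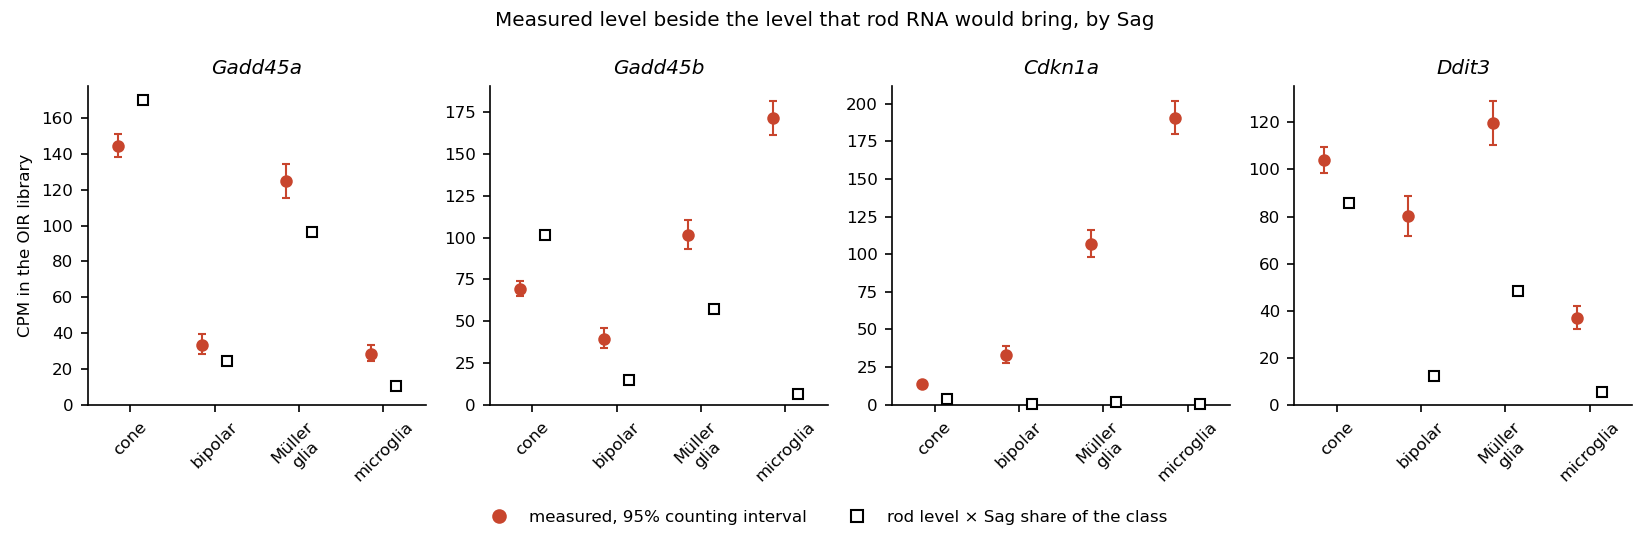
Level of Gadd45a, Gadd45b, Cdkn1a and Ddit3 in the OIR library (red, CPM with 95% counting interval) beside the level that rod RNA would bring by the Sag share of each class (open squares, CPM). For Gadd45b the square lies above the measured value in cone-like cells (101 against 69.5 CPM) and far below it in microglia-like cells (6.30 against 171 CPM).

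Gadd45a (ENSMUSG00000036390, chr6:67035096-67037457, minus strand) was led by photoreceptors. It stood at 167 CPM in control against 224 CPM in OIR rod-like cells (log2 ratio 0.42, 0.35 to 0.50) and in cone-like cells at 103 and 145 CPM (0.49, 0.36 to 0.61). In bipolar-like cells it stood at 42.6 and 33.6 CPM, with an interval that holds 0 (-0.34, -0.70 to 0.02). In Müller glia-like cells it stood at 49.6 and 125 CPM (1.33, 1.07 to 1.60). By the Sag share, rod RNA would bring 43.1 CPM of the control and 96.3 CPM of the OIR level in that class, and the Gadd45a difference there cannot be told apart from rod RNA. In microglia-like cells Gadd45a had its lowest levels, 13 and 28.6 CPM (1.14, 0.76 to 1.53), of which rod RNA would bring 5.83 and 10.5 CPM. Rod-like and cone-like cells headed the order in both libraries without overlap. In control the intervals of Müller glia-like and bipolar-like cells overlapped, and in OIR the intervals of bipolar-like and microglia-like cells overlapped at its foot. With doublets kept and the cells clustered again, the log2 ratio was 0.90 in Müller glia-like and 0.77 in microglia-like cells, so that Gadd45a was no longer counted in either.

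Gadd45g (ENSMUSG00000021453, chr13:51846678-51848468, plus strand) was led by bipolar-like and Müller glia-like cells and was apart between the libraries in microglia. It stood at 95.8 CPM in control against 87.6 CPM in OIR bipolar-like cells and in Müller glia-like cells it stood at 96.8 and 83.3 CPM, with intervals that hold 0 (-0.36 to 0.10 and -0.44 to 0.01). Within bipolar-like cells, the cluster led by Pcp2 and Trpm1, markers of rod bipolar cells, held 199 and 126 CPM, and the cluster led by Neurod4 and Ntng1 held 78.1 and 70.9 CPM. In microglia-like cells Gadd45g stood at 25.9 and 82.2 CPM (log2 ratio 1.67, 1.42 to 1.93), and after thinning 2.99% (1.90 to 4.45) and 7.58% (5.49 to 10.1) of cells had a UMI. In OIR the intervals of bipolar-like, Müller glia-like and microglia-like cells overlapped from neighbour to neighbour. Rod-like cells held 3.44 and 10.8 CPM and cone-like cells 5.98 and 12.1 CPM, both under the minimum of 20 CPM.

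**Figure D4:**
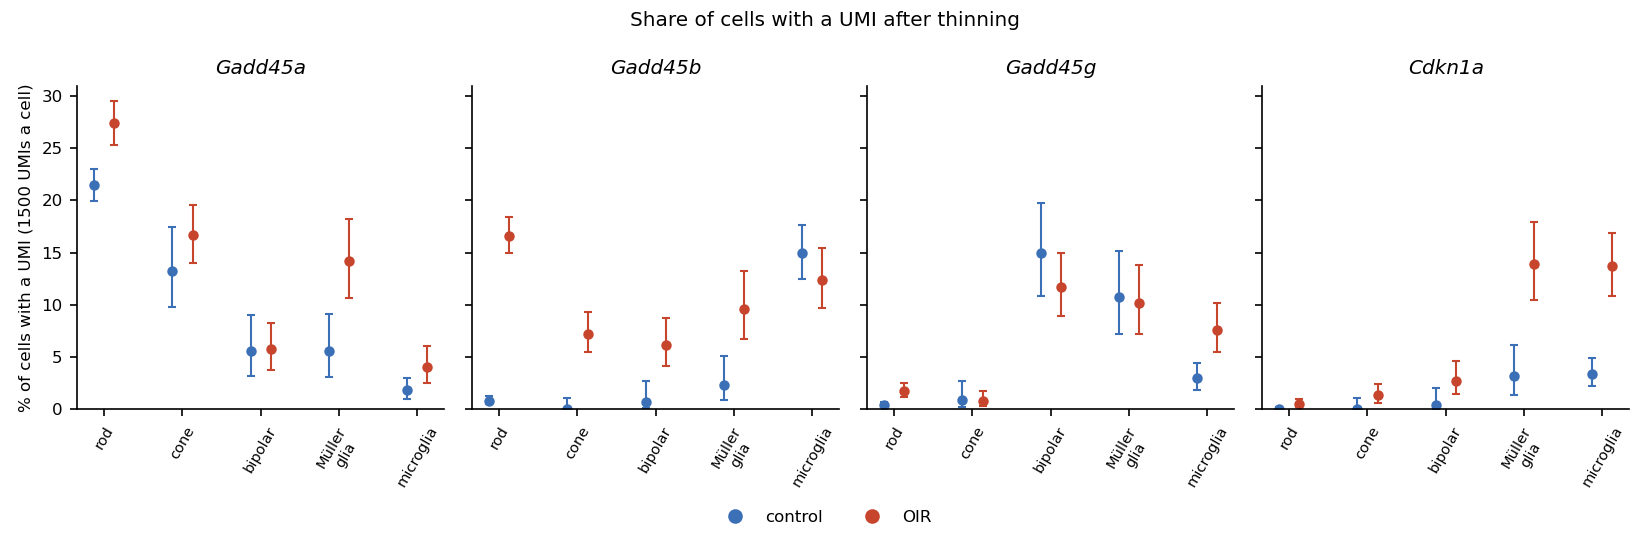
Percent of cells with at least 1 UMI after every cell was thinned to 1500 UMIs, for the Gadd45 genes and Cdkn1a in the 5 classes (control blue, OIR red, bars for the exact 95% interval). Gadd45b goes from 0.849% to 16.6% in rod-like cells, and Cdkn1a from 3.38% to 13.7% in microglia-like cells.

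Cdkn1a (ENSMUSG00000023067, chr17:29090976-29100727, plus strand) stood at 40.5 CPM in control against 190 CPM in OIR microglia-like cells, or 265 against 1179 UMIs (log2 ratio 2.23, 2.04 to 2.43). In Müller glia-like cells it stood at 17.7 and 107 CPM (2.60, 2.18 to 3.04) and in bipolar-like cells at 4.01 and 33.1 CPM (3.05, 2.16 to 4.08). The classes had the same order in both libraries, from microglia-like through Müller glia-like and bipolar-like to cone-like and rod-like cells, and only the control intervals of the last pair overlapped. By the Sag share, rod RNA would bring at most 3.55 CPM to any of the other 4 classes in OIR, and 2.01 CPM to Müller glia-like and 0.516 CPM to bipolar-like cells. After thinning, 3.38% (2.22 to 4.91) of control and 13.7% (10.9 to 16.9) of OIR microglia-like cells had a UMI, and 3.17% (1.38 to 6.16) and 13.9% (10.4 to 17.9) of Müller glia-like cells. Rod-like cells held 0.621 and 4.69 CPM and cone-like cells 0.729 and 13.9 CPM, under the minimum. One cone-like cluster of 55 control and 167 OIR cells carried Müller glia RNA, with Glul at 902 and 1184 CPM, and without it the cone-like log2 ratio of Cdkn1a was 2.65, with 0 control UMIs set to 3 counts, in place of 4.25.

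Different clusters held most microglia-like cells in the control and in the OIR library. In control, 290 and 252 of the 828 cells lay in a pair of clusters led by Icam1, where the OIR library had 35 and 27 cells. Another Icam1-led cluster held 137 control and 114 OIR cells. In OIR, 112 cells lay in a cluster led by Mmp12, a macrophage elastase, which held 17.9% of the OIR cells of the class, 38.7% of its UMIs and 2 control cells. In that cluster Cdkn1a stood at 342 CPM, Gadd45g at 143 CPM and Gadd45b at 257 CPM. Without it the microglia-like log2 ratios were 1.22 (0.99 to 1.45) for Cdkn1a, 0.75 (0.43 to 1.07) for Gadd45g and -0.45 (-0.61 to -0.29) for Gadd45b, so that Gadd45g passed under the 2-fold limit and Gadd45b lay below 0. In the 3 clusters with more than 20 cells in each library and an Icam1 lead, Cdkn1a stood at 57.9 and 79.2, at 25.9 and 96.8 and at 25.5 and 103 CPM. At a coarser clustering, where 831 control and 385 OIR cells were named microglia-like, Cdkn1a had a log2 ratio of 0.90 and Gadd45g of 0.52, and 1 of the 10 genes was counted as higher. There, a cluster led by S100a9, with Mmp12 and Ccl4 also among its top 10 genes, was named neutrophil-like. It held 17 control and 217 OIR cells, against 13 and 19 neutrophil-like cells in the main clustering. The microglia-like class thus held other cells at that setting, and the part of this in the ratios was not tested.

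Genes that cell dissociation is known to switch on also differed between the libraries in microglia-like cells. The summed level of the immediate early list was 34896 CPM in control against 16201 CPM in OIR microglia-like cells, and Fos stood at 3319 and 1981 CPM. In a shallow cluster of 128 control and 81 OIR cells led by Rgs10 (median 1731.5 and 1608 UMIs), with Fos at 66.8 and 144 CPM, Gadd45b had 0 UMIs in both libraries, which allows up to 11.8 and 20.6 CPM. In another cluster with few Fos UMIs (67.1 CPM), led by Hmox1 and holding 119 OIR and 2 control cells, Gadd45b stood at 140 CPM. The part of dissociation in these levels was not tested.

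Atf4 (ENSMUSG00000042406, chr15:80255184-80257541, plus strand), the central transcription factor of the response, was present in every class and was under 2-fold apart in all 5. It stood at 603 CPM in control against 581 CPM in OIR rod-like cells (log2 ratio -0.05, -0.10 to -0.01), in cone-like cells 425 and 400 CPM (-0.09, -0.15 to -0.02) and in bipolar-like cells 181 and 206 CPM (0.18, 0.02 to 0.34). Müller glia-like cells held 192 and 254 CPM (0.40, 0.26 to 0.55). Microglia-like cells held 289 and 224 CPM (-0.36, -0.46 to -0.26). The rod-like and cone-like intervals held 0 with doublets kept, at the coarser clustering and when clustered without the 10 genes and the lists, and the bipolar-like interval held 0 in the first 2 of these. Atf4 is controlled largely at translation, which RNA counts do not measure.

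Ddit3 (ENSMUSG00000025408, chr10:127290774-127296288, plus strand), whose product Chop follows lasting Atf4 activity, was also under 2-fold apart in all 5 classes. It stood at 84.7 and 113 CPM in rod-like cells (log2 ratio 0.42, 0.31 to 0.53), 85.5 and 104 CPM in cone-like cells (0.28, 0.14 to 0.42) and 60.8 and 80.1 CPM in bipolar-like cells (0.40, 0.13 to 0.67). In Müller glia-like cells it stood at 68.0 and 120 CPM (0.81, 0.58 to 1.05), of which rod RNA would bring 21.8 and 48.5 CPM. In microglia-like cells it lay the other way, at 52.8 and 36.8 CPM (-0.52, -0.77 to -0.27). Müller glia-like cells were behind cone-like and rod-like cells in control and headed the order in OIR, where their interval overlapped that of rod-like cells.

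Trib3 and Chac1, a pseudokinase and a glutathione-degrading enzyme that report strong Atf4 and Chop activity, stayed under 20 CPM in all 5 classes in both libraries. Trib3 (ENSMUSG00000032715, chr2:152337422-152344032, minus strand) stood at 10.6 and 15.9 CPM in rod-like cells (log2 ratio 0.58, 0.28 to 0.89). Müller glia-like cells held 1.04 and 7.15 CPM (3 against 38 UMIs; 2.78, 1.12 to 5.12) and microglia-like cells 0.918 and 4.04 CPM (6 against 25 UMIs). In cone-like cells it stood at 7.73 and 7.07 CPM and in bipolar-like cells at 2.55 and 3.91 CPM, both with an interval of the ratio that holds 0. Chac1 (ENSMUSG00000027313, chr2:119351229-119354381, plus strand) had at most 20 UMIs in any class and library. In the Müller glia-like class it had 0 UMIs in control and 20 in OIR, which is 3.61-fold with the control count set to the limit of 3, with an interval of the log2 ratio from 1.42.

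Ddit4 (ENSMUSG00000020108, chr10:59949669-59951834, minus strand) was led by rod-like cells, at 157 CPM in control against 144 CPM in OIR (log2 ratio -0.13, -0.22 to -0.04). It was slightly lower in OIR in cone-like (71.2 and 62.0 CPM) and bipolar-like cells (72.1 and 59.1 CPM). In Müller glia-like cells it stood at 104 and 70.5 CPM (-0.56, -0.78 to -0.34). In microglia-like cells it stood at 15.5 and 27.9 CPM (0.85, 0.49 to 1.22), the class where it was lowest. That ratio was 0.33, with an interval that holds 0, without the Mmp12-led cluster (-0.13 to 0.77).

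Ddit4l (ENSMUSG00000046818, chr3:137621612-137628333, plus strand), a paralogue of Ddit4, was the only one of the 10 genes counted as lower. It lay mostly in bipolar-like cells, with 66.3 CPM in control against 20.01 CPM in OIR (182 against 87 UMIs; log2 ratio -1.73, -2.11 to -1.35), and next in Müller glia-like cells, with 27.4 and 6.02 CPM (79 against 32 UMIs; -2.19, -2.83 to -1.58). Rod-like cells held 0.395 and 0.276 CPM, cone-like cells 1.46 and 1.54 CPM, and microglia-like cells 0 UMIs in both libraries. Within bipolar-like cells it lay in the Neurod4-led cluster (76.8 CPM in control, 28.5 CPM in OIR) far more than in the Pcp2-led cluster (4.98 and 0.753 CPM). That Pcp2-led cluster made up 23.8% of bipolar-like cells in control and 48.1% in OIR, and the difference was present within the Neurod4-led cluster as well. After thinning, 7.09% (4.32 to 10.8) of control and 2.12% (1.02 to 3.87) of OIR bipolar-like cells had a UMI. With doublets kept and the cells clustered again, the log2 ratio in Müller glia-like cells was -1.80, but Ddit4l was under 20 CPM there in both libraries and so was not counted.

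**Figure D5:**
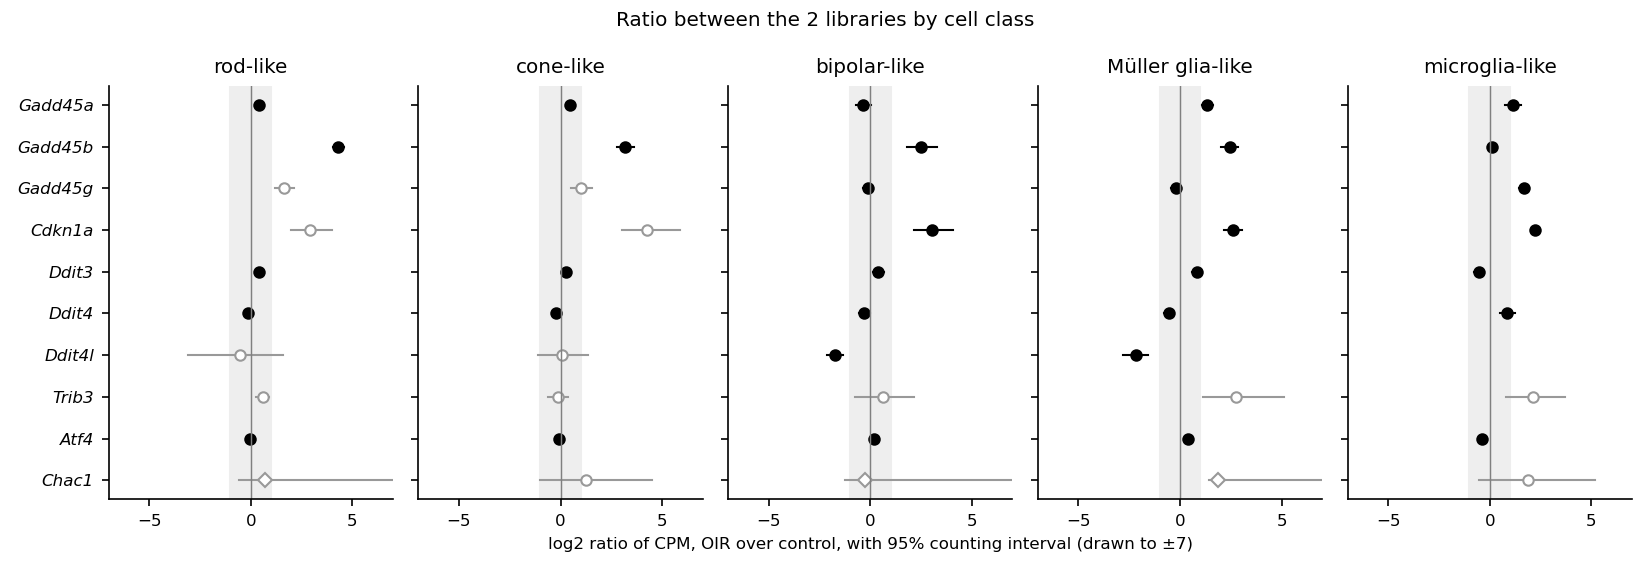
Log2 ratio of OIR over control for each of the 10 genes in each class, with the 95% counting interval drawn to 7 on either side. Filled points had at least 20 CPM in 1 library, diamonds have 0 UMIs in 1 library, and the grey band is under 2-fold. Ddit4l lies to the left at -1.73 in bipolar-like and -2.19 in Müller glia-like cells, while Atf4 lies inside the band in all 5 classes.

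In thinned cells some pairs of the genes occurred together in more cells than the product of their single shares gives, and other pairs did not. Among 353 OIR Müller glia-like cells, 15 had both Gadd45b and Cdkn1a against 4.72 by that product, and 14 had both Gadd45a and Cdkn1a against 6.94. Among 541 OIR microglia-like cells, 13 had both Gadd45b and Gadd45g against 5.08, 14 had both Gadd45g and Cdkn1a against 5.61, and 17 had both Gadd45b and Cdkn1a against 9.16. Among 1792 OIR rod-like cells, 80 had both Gadd45a and Gadd45b against 81.7, and 54 had both Gadd45b and Ddit3 against 44.9. These are descriptions of single libraries, and cells of 1 cluster share much more than these genes.

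The genes around the 10 were followed in lists, counted by the same rule. Of the 19 genes of the eIF2alpha kinases, the translation factor eIF2 and its phosphatase, 12 to 14 were measured in a class. None was counted as higher in any of the 5 classes, and 1 was lower, the phosphatase subunit Ppp1r15a in microglia-like cells (609 CPM in control against 207 CPM in OIR). Of 27 genes of ER chaperones and the unfolded protein response, 22 to 24 were measured, and 0 were counted in rod-like, cone-like, bipolar-like or Müller glia-like cells. In microglia-like cells the disulfide isomerase P4hb was higher, and Dnajb9 and Herpud1 (182 and 63.1 CPM) were lower. The median log2 ratio of that list was 0.26 in rod-like cells against 0.05 over all measured genes, with Hsp90b1 at 388 and 582 CPM.

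Of 57 targets of Atf4 and Chop, the number counted as higher was 1 of 22 measured in rod-like cells, 4 of 27 in cone-like, 2 of 27 in bipolar-like, 6 of 35 in Müller glia-like and 5 of 27 in microglia-like cells. Atf3, a stress transcription factor, was the one in rod-like cells (10.8 and 34.7 CPM). Müller glia-like cells held Nupr1, a stress-induced chromatin protein, at 28.1 and 448 CPM, and Atf3, Slc7a5, Aars, Ero1l and Eif4ebp1 were also higher, while the serine and cysteine synthesis genes Psat1 and Cth were lower. Nupr1 was also higher in cone-like cells (0.729 and 52.4 CPM), with Atf3, Cebpb and Rgs2. Cone-like cells also carried more Müller glia RNA in OIR, with the Müller glia markers at a sum of 1578 and 3095 CPM. The cone-like cluster with Müller glia RNA held 30.1% of the UMIs of the class in control and 45.1% in OIR. The part of that RNA in the cone-like levels of these targets was not tested. In bipolar-like cells Shmt2 (7.65 and 24.6 CPM) and Ero1l were higher. In microglia-like cells Slc7a11, the cystine importer, stood at 1.84 and 88.2 CPM, with Psat1, Ero1l, Eif4ebp1 and Sqstm1 also higher, and Slc38a2, Cebpg, Ppp1r15a and Herpud1 lower. The median of this list was 0.21 in Müller glia-like and -0.07 in microglia-like cells, against -0.04 and -0.11 over all measured genes.

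Of 30 p53 targets, of which 29 were in the files and 11 to 13 measured in a class, Plk2 was counted as higher in rod-like (4.57 and 40.0 CPM), cone-like (7.59 and 33.4 CPM) and microglia-like cells (2.75 and 30.04 CPM). No p53 target of the list was counted as higher in bipolar-like or Müller glia-like cells, where Cdkn1a was. In Müller glia-like cells Phlda3 came near the 2-fold limit, at 22.9 and 44.0 CPM (log2 ratio 0.94, 0.54 to 1.36). The median log2 ratio of the list was 0.22 in Müller glia-like and -0.21 in bipolar-like cells, against -0.04 and -0.07 over all measured genes. The part of p53 was not tested. Bbc3 was lower in bipolar-like cells (28.4 and 11.96 CPM), and Bbc3, Sesn1, Btg2 and Plk3 in microglia-like cells. Of 7 further inhibitors of cyclin-dependent kinases, 3 or 4 were measured, and only Cdkn2d in microglia-like cells was counted (19.6 and 43.0 CPM). Of 14 partners of Gadd45 proteins and kinases of the p38 and JNK cascades, Mapk10 was lower in Müller glia-like cells (56.2 and 26.0 CPM), Cdk1 (13.9 and 51.5 CPM) and Tdg were higher and Mapk14 lower in microglia-like cells, and 0 were counted in rod-like, cone-like or bipolar-like cells. Of 17 genes of mTORC1 control, Deptor was lower in Müller glia-like cells (57.9 and 17.1 CPM), Eif4ebp1 was higher there and in microglia-like cells (53.5 and 158 CPM), and Rptor and Sesn1 were lower in microglia-like cells.

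Of 18 hypoxia genes, 2 of 13 measured were counted as higher in rod-like and 2 of 12 in cone-like cells (Vegfa and Bnip3 in both), 6 of 15 in bipolar-like, 5 of 15 in Müller glia-like and 12 of 16 in microglia-like cells, and none as lower. Their median log2 ratio was 1.73 in microglia-like, 0.77 in Müller glia-like, 0.72 in bipolar-like, 0.27 in cone-like and 0.04 in rod-like cells. Over all measured genes the medians were -0.11, -0.04, -0.07, -0.03 and 0.05 in the same order. Vegfa stood at 11.6 and 36.9 CPM in rod-like cells and in Müller glia-like cells Adm, the gene of adrenomedullin, stood at 3.47 and 85.0 CPM. Ddit4, which is often counted among such genes, was not higher by the rule in any class. Of 10 glucocorticoid-responsive genes, the metallothioneins Mt1 and Mt2 were higher in all 5 classes, with Mt2 at 938 CPM in OIR Müller glia-like cells against 99.6 CPM in control. Fkbp5 was also higher in rod-like cells and Sgk1 in Müller glia-like cells, while Tsc22d3 and Sgk1 were lower in microglia-like cells. Of 22 immediate early genes, 11 of 21 measured were lower in microglia-like cells (median -1.08, with Klf2 at 2465 and 671 CPM). In rod-like cells 3 of 18 were higher (Nr4a1, Atf3 and Socs3, the last at 3.11 and 36.1 CPM) and in cone-like cells 5 of 21, among them Zfp36, Atf3, Klf4 and Socs3. In bipolar-like cells 1 of 14 was higher (Jun), and of 21 in Müller glia-like cells Ier3 and Atf3 were higher and Dusp1 lower.

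The genes most like each of the 10 were ranked by Pearson's r of log2(CPM + 5) over 10 units, the 5 classes in both libraries, among 9334 genes. For Gadd45a these were Esrrb (0.987) and Lmo1 (0.984), for Gadd45b Bcl3 (0.922) and Sertad2 (0.914), for Gadd45g Anapc5 (0.973) and Morf4l1 (0.972), and for Cdkn1a Llph (0.951) and Lmna (0.932). For Ddit3 they were Secisbp2l (0.952) and Sec63 (0.949), for Ddit4 Slc20a1 and Tmem42 (0.944 for both), for Ddit4l Adra2c (0.988) and Plppr5 (0.985), and for Atf4 Fam53b (0.980) and Slc26a2 (0.969). The units share their library, their depth and the rod RNA they carry, and no p is given. Trib3 and Chac1 were under 20 CPM in all units and were not ranked.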

How the data were processed

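Single cells of mouse retina were measured in 1 control and 1 OIR library. The authors deposited raw UMI counts per gene and barcode, made with Cell Ranger 3.0.2 on build mm10 per the submitters' processing notes; the annotation release is not stated in the sources used here. Positions came from GENCODE M21 (31011 of 31053 identifiers found).

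In Python 3.11.15 with scanpy 1.11.5, barcodes needed 500 or more genes, with mitochondrial UMIs up to 10%. Scrublet's automatic threshold marked 1 and 0 doublets, so the top-scoring 938 and 424 barcodes (0.8% per 1000) were removed. Cells were clustered on 2000 variable genes, among them Gadd45b, Cdkn1a and Trib3 (30 components, 20 neighbours, Leiden resolution 1), and myeloid clusters again among themselves. A name needed a mean log2 fold of its markers of at least 0.5 over clusters with a profile r under 0.9 (1.5 where no marker was among the top 10 genes) and 3 markers detected in 10% of cells, limits set with the data at hand. Unnamed cells were 0.909% and 0.718%.

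Counts were summed per class and library and scaled to CPM, with exact Poisson intervals. Ratios have exact conditional binomial and shares Clopper-Pearson intervals, all 95%. A count of 0 was set to 3 in a ratio. Carried rod RNA is given by Sag, and the same by 1 other transcript is not reported here. With 1 library a group there is no test. The interval step was tested on simulated counts. The genes and lists were chosen with earlier results of these data known. Beside the 10 genes, the rule named the measured gene with the largest ratio per list and class, where its interval excluded 0, and the 2 most alike genes per member; others were chosen after their values were seen.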

Additional observations from a re-analysis of the deposited data

Results flagged for a closer look

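In 3 of the genes the counting intervals of the log2 ratio of OIR over control lay on opposite sides of 0 in different classes, and the difference between classes was not tested. Ddit3 was above 0 in Müller glia-like (0.81), bipolar-like (0.40), rod-like (0.42) and cone-like cells (0.28) and below 0 in microglia-like cells (-0.52). Ddit4 was above 0 in microglia-like cells (0.85) and below 0 in Müller glia-like (-0.56), bipolar-like (-0.29), cone-like (-0.20) and rod-like cells (-0.13). Atf4 was above 0 in bipolar-like (0.18) and Müller glia-like cells (0.40) and below 0 in rod-like (-0.05), cone-like (-0.09) and microglia-like cells (-0.36). All 15 of these ratios are under 2-fold, and several sides of 0 depended on the processing. For Atf4 the rod-like and cone-like intervals held 0 with doublets kept, at Leiden resolution 0.5, when clustered without the 10 genes and the lists, and when thinned, and the bipolar-like interval in the first 2 of these. The Ddit4 interval held 0 in bipolar-like cells with doublets kept, in cone-like cells without the cluster that carries Müller glia RNA, and in microglia-like cells without the Mmp12-led cluster. When cells were thinned to 1500 UMIs, the Ddit4 intervals held 0 in all 5 classes, those of Ddit3 in cone-like, bipolar-like and microglia-like cells, and those of Atf4 in all but bipolar-like cells. Rod RNA in the other classes, the immediate early genes and the pools' sex-linked RNA differed between the libraries as well, and their part was not tested.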

How the results depend on the processing

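With no CPM minimum, 3 genes were counted as higher in rod-like and in cone-like cells and 5 in Müller glia-like cells, in place of 1, 1 and 3, and 143 list entries (a gene in a class) were higher in place of 77. With a minimum of 50 CPM, 0 were higher in bipolar-like and 0 lower in Müller glia-like cells, and 48 list entries were higher. At a limit of 1.5-fold, 120 list entries were higher and 65 lower, in place of 77 and 33. With doublets kept, 0 were lower in Müller glia-like cells. At resolution 0.5, where a cluster with Mmp12 among its top genes was named neutrophil-like, 1 was higher in microglia-like cells in place of 3. Thinned to 1500 UMIs a cell, 1 was higher in bipolar-like cells in place of 2. The cause was not tested, except that a minimum or a fold limit changes by its construction which genes can be counted. The shares of all genes counted under these alternatives are not given here, so nothing is read from the counts about the 10 genes or the lists. Scaling by the median of ratios and clustering without the 10 genes and the list genes left every count within 1.5 times, and no counted ratio changed sign under any alternative given here. Alternatives chosen after seeing the data left out the cone-like cluster with Müller glia RNA, the Edn2-led rod-like or the Mmp12-led microglia-like cluster. The stricter cell filter (at least 1000 genes and at most 5% mitochondrial UMIs) gave values for rod-like and microglia-like cells only. No paired analysis was possible because each group has 1 library. Depth limits Trib3, Chac1 and the thinned values of all genes under 20 CPM.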

Other observations

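In classes too small to compare, Cdkn1a stood at 12.2 CPM in 32 control cells named border macrophage-like and at 73.5 CPM in 96 such OIR cells (3 against 83 UMIs; log2 ratio 2.59, interval from 0.995), and Gadd45b at 48.8 and 102 CPM. In amacrine-like cells (84 control and 37 OIR) Cdkn1a had 1 and 16 UMIs, and Gadd45b stood at 39.6 and 36.6 CPM. In neutrophil-like cells (13 and 19) Gadd45b stood at 249 and 97.6 CPM, the reverse of its order in rod-like cells. An unnamed cluster led by Cldn5, Mgp and Tm4sf1, with 47 control and 15 OIR cells, held Cdkn1a at 261 CPM in control against 179 CPM in OIR, above the control level of every compared class, and Ddit4 at 225 and 47.3 CPM. Another unnamed cluster, led by Crhbp and Optc, held Gadd45g at 429 CPM in 18 OIR cells and at 204 CPM in 5 control cells.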
